A study of Mus musculus with 8 samples.

Results

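Killer lectin-like receptors are C-type lectin-like proteins of the cell surface, most of them encoded side by side in the natural killer gene complex on mouse chromosome 6. The genes described here were chosen by name from a list of 9, of which 8 had a row among the 11354 genes of the count table (Klra2, Klrb1b, Klrb1c, Klrb1f, Klrc1, Klrd1, Klrg1 and Klrk1), and Klre1 was not analysed here. The 8 libraries are poly(A) RNA of CD4 T cells of Black6 background recovered from RAG-/- hosts, which lack T and B cells of their own but keep natural killer and myeloid cells. Of these libraries, 4 are labelled as from hosts given wild-type cells and 4 as from hosts given Nlrp6-/- cells. The host numbers are 1, 2, 4 and 5 for either label, and the labels do not state whether a number marks 1 mouse. Libraries go by label and host number, from WT 1 to WT 5 and from KO 1 to KO 5. No time after transfer, host age or description of the targeted allele was used here, and the labels name 2 tissues of origin, the spleen and the colonic lamina propria, in different fields.

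As background, these receptors read ligands of the class I type or C-type lectin-like ligands on neighbouring cells and either restrain or trigger the cell. Inhibitory members carry a tyrosine motif in their tail that recruits phosphatases such as those encoded by Ptpn6 and Ptpn11, and activating members pair with adaptor proteins, among them Tyrobp (DAP12), Hcst (DAP10) and Fcer1g. They are best known from natural killer cells, several also appear on activated and memory T cells, and Klra2 (Ly49B) is known from myeloid cells rather than natural killer cells.

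Nlrp6, the gene the labels are about, went against them: its counts were 5, 3, 3 and 8 in WT 1, 2, 4 and 5 and 487, 329, 477 and 648 in KO 1, 2, 4 and 5. Every direction below is therefore that of libraries labelled knock-out (KO) or labelled wild type (WT), not of a genotype. Library totals ran from 35198192 to 40310721 counts. The T cell identity of the libraries was seen in Cd4 (1446 and 1222 CPM, counts scaled to library size, on average under the WT and KO labels) and Cd3e (527 and 504.5 CPM). Cd8b1, which encodes the second chain of the CD8 coreceptor, was at 2.39 and 1.95 CPM, and Cd8a, which some myeloid cells also express, was at 4.10 and 19.0 CPM. Cd8a rose (2.21 ± 0.53, edgeR adjusted p = 0.0280), a call lost in 6 of 17 alternative fits, and Cd8b1 did not pass (-0.29). Cd8a was highest in KO 2 (39.5 CPM) and lowest of the KO label in KO 4 (6.54 CPM). That value lay below WT 1 (6.66 CPM), so the labels overlapped. Of 10 measured T cell markers 0 rose and 1 fell in edgeR, against 6.20% and 3.84% of all genes. Only 1 of the 10 had a positive log2 fold change, and the median was -0.099. An edgeR unadjusted p under 0.05 was seen for 3 of them (Cd247, Cd3g and Cd4, each lower), against 23.5% of all genes. Their sum was 8323 ± 559 and 7711 ± 161 CPM (SD, n = 4 each, two-sided exact permutation p = 0.0857, adjusted 0.129). The natural killer cell gene Ncr1 was not analysed here.

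Of the 8 receptors, 1 differed between the labels: Klra2 rose in the libraries labelled knock-out, and the other 7, which are the receptors known from natural killer and T cells, did not pass the test. In edgeR's quasi-likelihood test 1 of 8 was higher and 0 were lower at an adjusted p below 0.05, where 10.0% of all 11354 genes were called (6.20% higher and 3.84% lower). At an unadjusted p under 0.05 there were 3 of the 8 (Klra2, Klrb1f and Klrc1, none of them lower), against 23.5% of all genes. DESeq2 and limma-voom each called 2 higher, adding Klrb1f, and 0 lower. Over all genes these called 926 and 795 higher, against 704 in edgeR. The median log2 fold change was 0.30 over the 8 receptors and -0.0026 over all genes. CPM ranges were separate for 1 of the 8 receptors, with the KO label above, against 16.0% of all genes (8.60% with the KO label above and 7.37% with it below).

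The promoters of Klra2, of Klrc1 and of Klrk1 are shown because Klra2 is the receptor that differed and because Klrc1 and Klrk1 are receptors of natural killer and T cells whose levels did not separate the labels. Each is the 300 bases from 250 before to 50 after a start that RefSeq gives for GRCm38.p6, written 5′ to 3′ on the gene's strand. Klra2 is read from chr6:131247313-131247612, Klrc1 from chr6:129678924-129679223 and Klrk1 from chr6:129623815-129624114, all on the minus strand. Capitals mark matches, on either strand, to GAGGAA (core letters of PU.1 sites, a factor of myeloid cells), TGTGGT (RUNX) and GGTGTGA (T-box), motifs that do not overlap each other here.
Klra2: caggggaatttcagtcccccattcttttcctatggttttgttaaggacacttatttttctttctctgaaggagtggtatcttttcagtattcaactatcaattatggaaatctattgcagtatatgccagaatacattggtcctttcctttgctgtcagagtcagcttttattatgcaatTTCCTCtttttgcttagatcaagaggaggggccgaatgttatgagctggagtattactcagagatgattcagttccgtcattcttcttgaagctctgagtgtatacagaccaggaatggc
Klrc1: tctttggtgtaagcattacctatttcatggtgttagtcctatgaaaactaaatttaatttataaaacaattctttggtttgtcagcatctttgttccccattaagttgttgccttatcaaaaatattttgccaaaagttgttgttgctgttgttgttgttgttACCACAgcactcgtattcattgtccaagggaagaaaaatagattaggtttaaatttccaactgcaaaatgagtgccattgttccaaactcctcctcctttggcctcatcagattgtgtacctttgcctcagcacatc
Klrk1: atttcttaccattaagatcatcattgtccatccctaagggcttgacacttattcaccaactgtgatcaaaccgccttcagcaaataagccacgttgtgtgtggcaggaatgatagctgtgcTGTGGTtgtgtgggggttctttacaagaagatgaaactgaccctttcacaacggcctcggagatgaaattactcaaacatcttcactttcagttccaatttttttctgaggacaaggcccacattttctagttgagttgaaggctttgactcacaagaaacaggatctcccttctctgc
The Klra2 window held 1 match to GAGGAA, read on the opposite strand as TTCCTC, and the Klrc1 and Klrk1 windows held 0. The Klrc1 and Klrk1 windows each held 1 match to TGTGGT and Klra2 held 0, and none of these 3 windows matched GGTGTGA. Among all 32851 promoter windows of this length, 28.3% held GAGGAA, 16.8% held TGTGGT and 3.98% held GGTGTGA, so matches to the first pair of motifs are common. Of the 8 receptors, 6 had a promoter entry. Among those not shown, Klrb1b held 1 match to GAGGAA at each listed start, Klrb1c held 2 and Klrb1f held 0. Klrb1c also held 1 match to TGTGGT. A match to GAGGAA was thus not particular to Klra2, and the letters are a description of these windows only.

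Klra2 (Entrez 16633) lies on chromosome 6 from 131198970 to 131247716 (GRCm38). Its raw counts were 20, 11, 16 and 16 in WT 1, 2, 4 and 5, and 146, 250, 390 and 367 in KO 1, 2, 4 and 5. Scaled to library size, these were 0.490, 0.280, 0.405 and 0.418 CPM under the WT label and 3.78, 6.37, 11.4 and 9.25 CPM under the KO label. The labels did not overlap: KO 1, the lowest library labelled knock-out, was still several times above WT 1, the highest labelled wild type. The means were 0.398 ± 0.0870 and 7.71 ± 3.35 CPM (SD, n = 4 each). Every value under the WT label lay below 0.994 CPM, the lowest fourth-highest CPM of any gene in the count table. Klra2 thus had a row only through its levels under the KO label, which favours finding a rise. The log2 fold change was 4.26 ± 0.38 (SE) with an edgeR adjusted p of 0.000231, which is 19.2-fold. Only 11 of the 11354 genes had a larger positive log2 fold change. Klra2 kept its call in all 17 alternative fits, where its log2 fold change ran from 3.66 to 4.49. Klra2 belongs to the Ly49 family of close relatives, so its count is uncertain where reads were shared.

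**Figure D1:**
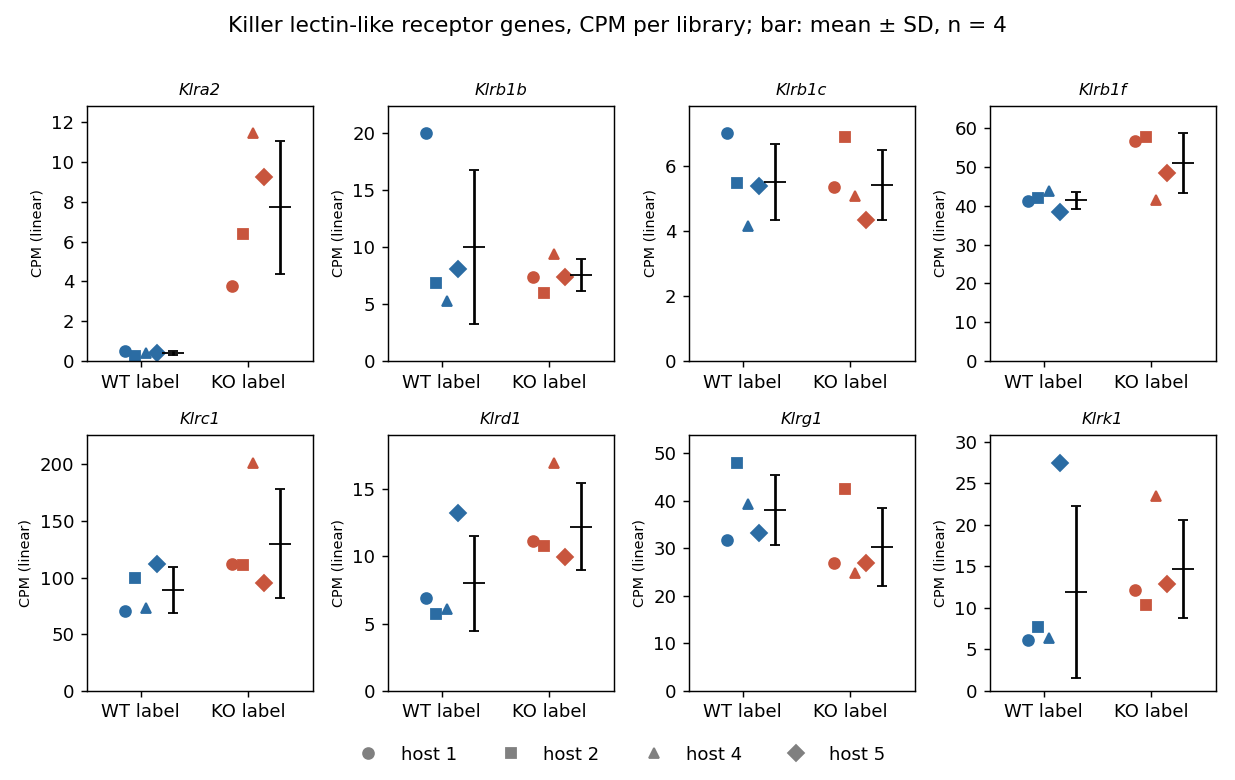
Each panel plots the CPM (linear axis from 0) of 1 receptor gene in the 4 libraries labelled wild type (blue) and the 4 labelled knock-out (red), with a symbol for each host number and a black bar for the mean ± SD. Klra2 separates the labels, from 0.280 to 0.490 against 3.78 to 11.4 CPM, whereas the libraries overlap for the other 7 genes, with WT 5 high for Klrk1 and Klrd1 and KO 4 high for Klrc1.

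The change of Klra2 was compared with that of each other receptor through the difference of their log2 CPM within a library. This difference was higher under the KO label for all 7 pairs, by 3.35 (Klra2 minus Klrd1) to 4.36 (Klra2 minus Klrg1) log2 units. Its values did not overlap between the labels in any pair: for Klra2 minus Klrk1 they ran from -5.88 to -3.51 under the WT label and from -1.68 to -0.470 under the KO label. The two-sided exact permutation p was 0.0286 for each pair, the lowest value that 70 ways of dividing 8 libraries can give, and 0.0286 after adjustment over the 7 pairs. Klra2 had a row in the count table only through the KO label. These pairs thus restate its separation and add no support to it. All 7 pairs share the Klra2 values, so they are not independent.

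Transcripts of myeloid cells differed between the same libraries. Of the 18 genes in the myeloid list, all measured, 15 rose and 0 fell, against 6.20% and 3.84% of all genes. The list was chosen with earlier results of these data known. Fcgr1 and Ms4a7 were below 0.994 CPM, the lowest fourth-highest CPM of any gene, in every library labelled wild type. Adgre1 was below it in WT 4 (0.582 CPM). These genes thus had rows only through the KO label, which favours finding a rise. The median log2 fold change of the list was 3.41. Csf1r, the receptor for macrophage growth factor, rose by 3.95 ± 0.39, the Fc receptor gene Fcgr3 by 3.36 ± 0.34 and the macrophage marker Adgre1 by 3.81 ± 0.41 (edgeR adjusted p at most 0.000485). The summed level of the list ran from 447 to 592 CPM under the WT label and from 769 to 1571 CPM under the KO label (two-sided exact permutation p = 0.0286, or 0.0857 when corrected for 6 marker lists). Ccr2, which T cells also express, supplied 428 and 456 CPM of the means and did not pass. Without Ccr2 and Cx3cr1, a choice made after their values were seen, the sum of the remaining 16 genes ran from 64.9 to 103 and from 347 to 1040 CPM. None of these 16 was at 0 under either label, the lowest mean being that of Ms4a7 at 0.233 and 2.66 CPM. In bulk RNA, fewer cells of a type and less RNA per cell cannot be told apart.

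Under the KO label Klra2 had the same order of libraries as Csf1r, although not as every gene of the list. Csf1r was at 5.70, 4.56, 2.68 and 4.59 CPM in WT 1, 2, 4 and 5 and at 30.3, 59.7, 106 and 74.4 CPM in KO 1, 2, 4 and 5. Both genes were thus highest in KO 4, then KO 5, KO 2 and KO 1. KO 4 and KO 5 are also the libraries with library code 8 in the sample descriptions, where all others have 7. With that code as a term the log2 fold change of Klra2 was 3.66, the lowest of its alternative fits. C1qa and Ms4a7 were instead highest in KO 5 (38.7 and 3.63 CPM), and Ly6c2 was lowest in KO 4 (24.9 CPM). Under the WT label the lowest library differed, WT 2 for Klra2 and WT 4 for Csf1r. Per base of gene length, the ratio of Klra2 to Csf1r lay between 0.180 and 0.441 under the WT label and between 0.311 and 0.364 under the KO label, ranges that overlap. The ratio of Klra2 to Fcer1g lay between 0.0651 and 0.127 and between 0.124 and 0.155, which also overlap. The genes most like Klra2 over the 8 libraries by Pearson correlation of log2 CPM were Pld4 (0.999), Msr1 (0.998) and Aoah (0.997), which all rose in the libraries labelled knock-out (log2 fold changes 4.03, 3.77 and 3.64). These correlations describe 8 points that fall into separate clusters by label and carry no test. The part of the myeloid transcripts in the Klra2 difference was not tested.

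**Figure D2:**
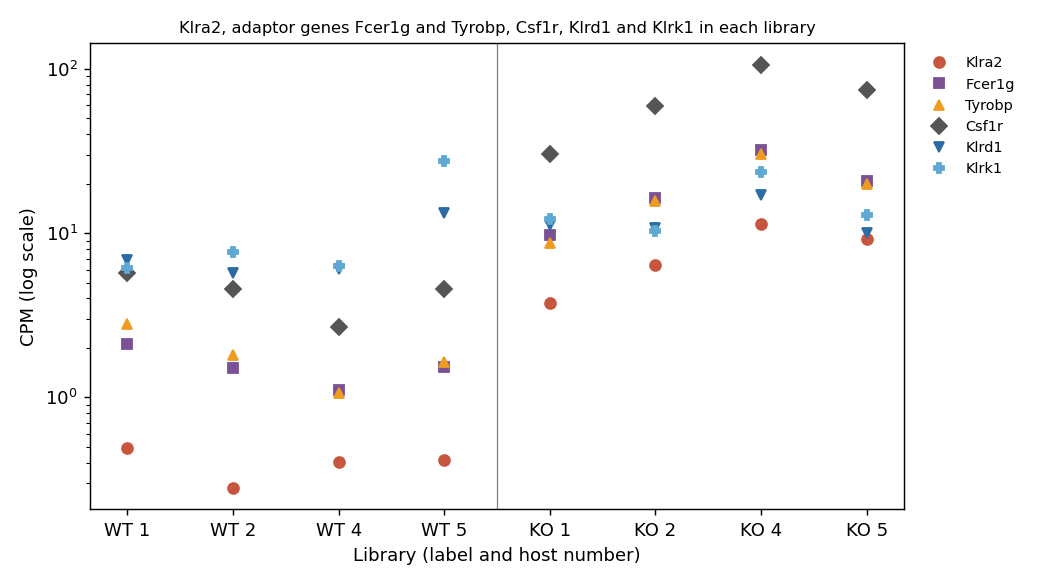
CPM on a log axis of Klra2, the adaptor genes Fcer1g and Tyrobp, the myeloid gene Csf1r, and the receptor genes Klrd1 and Klrk1 in each library, with a vertical line between the labels. Klra2, Fcer1g, Tyrobp and Csf1r step up together and peak in KO 4 (Klra2 at 11.4 CPM), while Klrd1 and Klrk1 have a high library under each label, WT 5 and KO 4.

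Klrc1 and Klrd1 encode NKG2A and CD94, which form an inhibitory receptor for the class I type molecule Qa-1. Klrc1 (chromosome 6, 129666015 to 129682852) was at 70.7, 99.8, 73.2 and 112 CPM in WT 1, 2, 4 and 5 and at 112, 111, 202 and 95.1 CPM in KO 1, 2, 4 and 5. KO 4 was the highest library and KO 5 lay below WT 2 and WT 5, so the labels overlapped. The log2 fold change was 0.55 ± 0.24, with a 95% interval from 0.0033 to 1.09, and did not pass (edgeR adjusted p = 0.210, and 0.115 to 0.636 over the alternatives). Without KO 4 its log2 fold change was 0.25 (adjusted p = 0.379). Klrc1 and its neighbour Klrc2, the gene of the activating relative NKG2C, resemble each other in sequence, so reads may have been shared between them.

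Klrd1 (chromosome 6, 129588092 to 129598775) was at 6.90, 5.73, 6.07 and 13.3 CPM in WT 1, 2, 4 and 5 and at 11.2, 10.8, 17.0 and 9.96 CPM in KO 1, 2, 4 and 5. WT 5 lay above KO 1, KO 2 and KO 5, and the other libraries labelled wild type lay below all libraries labelled knock-out. Its log2 fold change of 0.61 ± 0.28 did not pass, with a 95% interval from -0.020 to 1.24 (edgeR adjusted p = 0.229). It passed without WT 5 (0.97, adjusted p = 0.0165). Per base of gene length Klrc1 exceeded Klrd1 in every library, by 3.95 to 8.12 times under the WT label and by 4.46 to 5.54 times under the KO label.

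Klrk1 encodes NKG2D, an activating receptor for stress-induced ligands that signals through Hcst. Klrk1 (chromosome 6, 129610323 to 129623903) was at 6.12, 7.72, 6.30 and 27.5 CPM in WT 1, 2, 4 and 5 and at 12.2, 10.3, 23.4 and 12.8 CPM in KO 1, 2, 4 and 5. The single highest value was in WT 5, while the other libraries labelled wild type lay below all libraries labelled knock-out. The log2 fold change was 0.30 ± 0.50, with a 95% interval from -0.82 to 1.42 (edgeR adjusted p = 0.794). It passed without WT 5, at 1.13 (adjusted p = 0.0388), and was -0.017 without KO 4 (adjusted p = 0.990) and -0.082 in a fit that included the library code of the sample descriptions (adjusted p = 0.969). That code is 8 for KO 4 and KO 5 and 7 for all others. For Klrk1 the call thus turned on 1 library.

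Klrc1, Klrd1 and Klrk1 shared their high libraries. WT 5 was the highest library labelled wild type and KO 4 the highest labelled knock-out for each of the 3, and this was also so for Klrc2 (12.7 and 18.0 CPM). Pearson correlations of log2 CPM over the 8 libraries were 0.903 for Klrd1 with Klrk1, 0.828 for Klrc1 with Klrd1 and 0.781 for Klrc1 with Klrk1. These describe neighbouring genes in the same libraries and carry no test. With WT 5 and KO 4 left out together, a choice made after these values were seen, Klrd1 (0.76, edgeR adjusted p = 0.00365) and Klrk1 (0.80, adjusted p = 0.00654) passed and Klrc1 (0.38, adjusted p = 0.115) did not. Leaving out the highest library of each label also narrows the spread by construction, so these calls are given as values only.

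Natural killer cell markers varied gene by gene in WT 5 and KO 4. Gzma was the highest in both libraries within their labels (53.0 and 142 CPM), whereas Itga2 and Xcl1 were the highest of the WT label in WT 5 (17.5 and 11.8 CPM) and the lowest of the KO label in KO 4 (21.3 and 7.19 CPM). In WT 5, Gzma was nearly level with WT 1 (52.9 CPM) and Xcl1 with WT 4 (11.7 CPM). The summed level over 10 measured genes was 2311 CPM in WT 5, the lowest under the WT label, and 2789 CPM in KO 4, the highest of all. It was 2474 ± 116 and 2372 ± 281 CPM under the WT and KO labels (SD, n = 4 each, two-sided exact permutation p = 0.457, adjusted 0.543). Of these genes 1 rose, Itga2 (0.59 ± 0.11, edgeR adjusted p = 0.00915), which encodes a collagen-binding integrin chain, and 0 fell. Over all genes 6.20% rose and 3.84% fell. The granzyme gene Gzma (1.19 ± 0.39, adjusted p = 0.0977), the cytokine receptor gene Il2rb (-0.16) and the granule gene Nkg7 (-0.12) did not pass. Most of these genes are also expressed by activated T cells, so the sum does not measure natural killer cells alone.

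Klrb1b, Klrb1c and Klrb1f belong to the NKR-P1 subfamily, whose known ligands include proteins of the neighbouring Clec2 genes. Klrb1c (chromosome 6, 128778485 to 128788641), which encodes the NK1.1 antigen by which natural killer cells are recognised in this strain, was at 7.001, 5.48, 4.15 and 5.38 CPM in WT 1, 2, 4 and 5 and at 5.36, 6.88, 5.08 and 4.34 CPM in KO 1, 2, 4 and 5. The labels overlapped almost entirely. Its log2 fold change was -0.024 ± 0.19, with a 95% interval from -0.44 to 0.39 (edgeR adjusted p = 0.966), and its sign varied over the alternatives, from -0.16 to 0.15, with none passing.

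Klrb1b (chromosome 6, 128813706 to 128826315), an inhibitory member, was at 20.00, 6.83, 5.26 and 8.04 CPM in WT 1, 2, 4 and 5 and at 7.40, 5.96, 9.39 and 7.41 CPM in KO 1, 2, 4 and 5. WT 1 stood above all other libraries, which overlapped between the labels. On the log2 scale the fold change was -0.41 ± 0.38, with a 95% interval from -1.26 to 0.43 (edgeR adjusted p = 0.582). Without WT 1 it was 0.16 (adjusted p = 0.709), so its sign turned on that library.

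Klrb1f (chromosome 6, 129045837 to 129059724) was at 41.3, 42.0, 43.9 and 38.4 CPM in WT 1, 2, 4 and 5 and at 56.6, 57.8, 41.4 and 48.4 CPM in KO 1, 2, 4 and 5. KO 1, KO 2 and KO 5 lay above every library labelled wild type, and KO 4 lay among them. The log2 fold change was 0.30 ± 0.10, with a 95% interval from 0.076 to 0.53, and did not pass in edgeR (adjusted p = 0.0999). It passed in DESeq2 (adjusted p = 0.0441), in limma-voom (0.37, adjusted p = 0.0200), without KO 4 (0.39, adjusted p = 0.00963) and with a term for the library code (0.47, adjusted p = 0.00803). With that term the fit rests on KO 1 and KO 2 against the libraries labelled wild type.

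Klrg1 (chromosome 6, 122270596 to 122282833), an inhibitory receptor for cadherins that marks differentiated effector cells, lies apart from the gene complex. It was at 31.8, 48.0, 39.4 and 33.2 CPM in WT 1, 2, 4 and 5 and at 26.8, 42.6, 24.7 and 27.0 CPM in KO 1, 2, 4 and 5. Apart from KO 2, the libraries labelled knock-out lay below all libraries labelled wild type, and under both labels the library of host 2 was the highest. The log2 fold change was -0.33 ± 0.19, with a 95% interval from -0.75 to 0.090 (edgeR adjusted p = 0.339). It passed without KO 2 (-0.54, adjusted p = 0.0480).

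**Figure D3:**
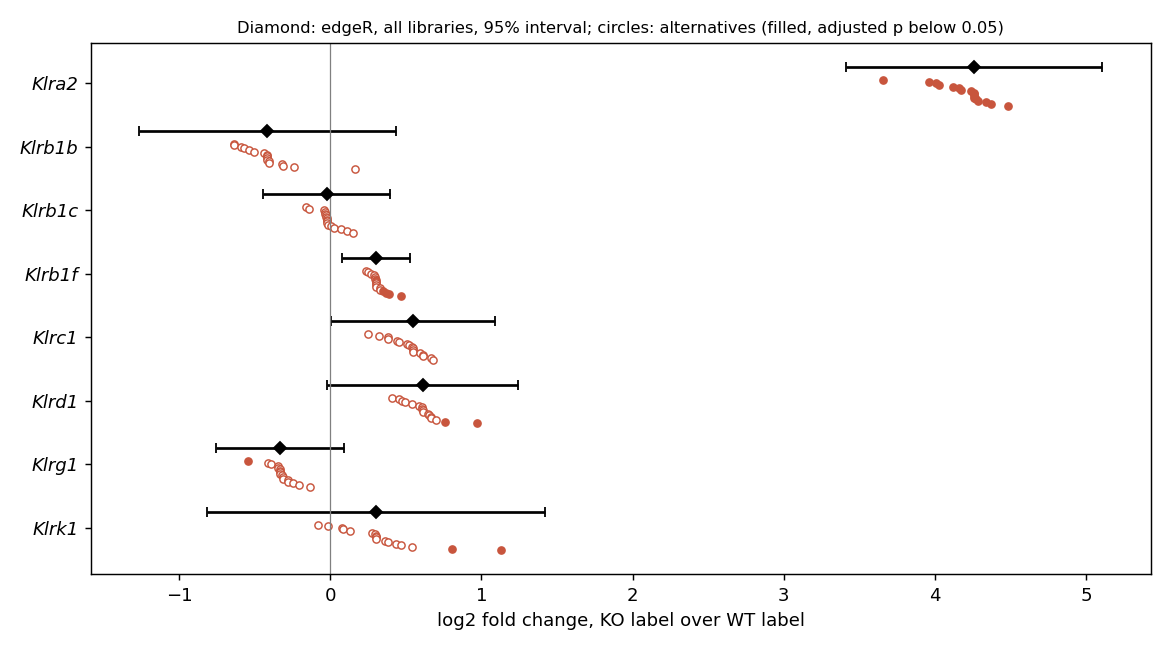
For each receptor gene, the black diamond is the log2 fold change (KO label over WT label) from edgeR on all libraries with its 95% interval, and the circles are the 17 alternative fits, filled where the adjusted p was below 0.05. All circles of Klra2 are filled, from 3.66 to 4.49, whereas those of the other genes lie between -0.64 and 1.13 and are filled for 5 fits of Klrb1f, 2 each of Klrd1 and Klrk1, and 1 of Klrg1.

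Divided by gene length, so that genes can be compared, the receptors spanned a wide range of levels. Under the WT label the order of mean levels, in CPM per kilobase, was Klrc1 (44.9 ± 10.3), Klrg1 (27.9 ± 5.42), Klrb1f (24.2 ± 1.32), Klrd1 (8.64 ± 3.83), Klrb1b (4.54 ± 3.05), Klrk1 (3.47 ± 3.04), Klrb1c (1.86 ± 0.395) and Klra2 (0.211 ± 0.0461). The library ranges of neighbours overlapped for Klrg1 with Klrb1f and along the run from Klrd1 through Klrb1b and Klrk1 to Klrb1c, and not for the other neighbours. Under the KO label Klrc1 was again the highest (65.5 ± 24.4) and Klrb1c the lowest (1.83 ± 0.361), and Klra2 (4.09 ± 1.77) overlapped Klrk1 (4.28 ± 1.73) and Klrb1b (3.41 ± 0.637). Klra2 thus stood at the bottom of the order under the WT label and among Klrk1 and Klrb1b under the KO label.

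The adaptors of activating receptors differed among themselves. Of the 4 in the list, all measured, 2 rose and 1 fell, against 6.20% and 3.84% of all genes. Fcer1g rose by 3.65 ± 0.37, from 1.11 to 2.11 CPM under the WT label to 9.68 to 32.2 CPM under the KO label (edgeR adjusted p = 0.000415). Tyrobp rose by 3.34 ± 0.41, from 1.06 to 2.82 to 8.69 to 30.5 CPM (adjusted p = 0.000782). Myeloid cells express both genes, and both peaked in KO 4 as Klra2 did. Hcst, the adaptor of the receptor encoded by Klrk1, was at 62.5 ± 3.46 and 64.7 ± 6.71 CPM (0.050 ± 0.076, adjusted p = 0.774). Cd247, the zeta chain of the T cell receptor complex, which natural killer receptors also use, fell, with a log2 fold change of -0.40 ± 0.11 (adjusted p = 0.0444). Leaving out 1 library at a time ended this call 6 times out of 8, with adjusted p-values up to 0.118 (without KO 1).

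Of 20 genes of known ligands, 8 were measured and 0 passed in either direction in edgeR. At an unadjusted p under 0.05 there were 2, against 23.5% of all genes. DESeq2 and limma-voom each called 1 lower and 0 higher, and over all genes they called 653 and 589 lower. H2-T23, which encodes the Qa-1 ligand of the CD94 and NKG2A pair, was at 422 ± 28.0 and 369 ± 18.7 CPM (-0.19 ± 0.058, edgeR adjusted p = 0.0689), and it passed in DESeq2 (adjusted p = 0.0163) and limma-voom (adjusted p = 0.0219). Ulbp1, a ligand gene for NKG2D, had a log2 fold change of 0.31 ± 0.14 (adjusted p = 0.208), and Cdh1, which encodes the E-cadherin ligand of Klrg1, one of 0.77 ± 0.39 (adjusted p = 0.275). Cdh1 was at 11.8 CPM in WT 5 and at 3.31 to 4.23 CPM in the other libraries labelled wild type, and it passed without WT 5 (1.37, adjusted p = 0.00510). H2-K1 (-0.091), H2-D1 (-0.021), B2m (-0.018) and Clec2d (0.020) had small log2 fold changes that did not pass.

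Downstream of the receptors, 3 of 17 measured signalling genes rose and 2 fell, against 6.20% and 3.84% of all genes. The median of the 17 log2 fold changes was -0.076. The kinase gene Syk rose by 3.57 ± 0.37, from 1.17 to 2.04 CPM under the WT label to 8.95 to 31.8 CPM under the KO label, with its highest level in KO 4 as for Klra2. The phospholipase gene Plcg2 rose by 1.42 ± 0.26 and the kinase subunit gene Pik3r1 by 0.24 ± 0.045. The phosphatase gene Ptpn11 fell (-0.33 ± 0.053, edgeR adjusted p = 0.00304). Zap70, the kinase of T and natural killer cells that corresponds to Syk and was singled out after its values were seen, fell (-0.27 ± 0.065, adjusted p = 0.0304). Its call was lost with the host number as a block (adjusted p = 0.0856), with a term for the library code (0.0695) and, leaving out 1 library at a time, 5 times out of 8, up to 0.0876 without KO 1.

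Elsewhere in the natural killer gene complex, 7 of 32 listed genes were measured. Of these 3 rose and 0 fell, against 6.20% and 3.84% of all genes. Clec7a (Dectin-1, a receptor for fungal glucans on myeloid cells) rose by 3.28 ± 0.37 and Clec12a, an inhibitory receptor of myeloid cells, by 1.27 ± 0.27 (edgeR adjusted p = 0.000553 and 0.0142). The call of Clec12a was lost with a term for the library code (1.13, adjusted p = 0.0794) and without WT 1 (1.18, adjusted p = 0.0517). Cd69, an early activation marker of T cells, rose by 0.31 ± 0.085 (adjusted p = 0.0490), a call that 9 of 17 alternatives lost, with adjusted p-values up to 0.177. Klrc2 (0.49 ± 0.24, adjusted p = 0.270), Clec2i (0.31 ± 0.14, adjusted p = 0.236), Gabarapl1 (0.18) and Clec2d (0.020) did not pass.

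**Figure D4:**
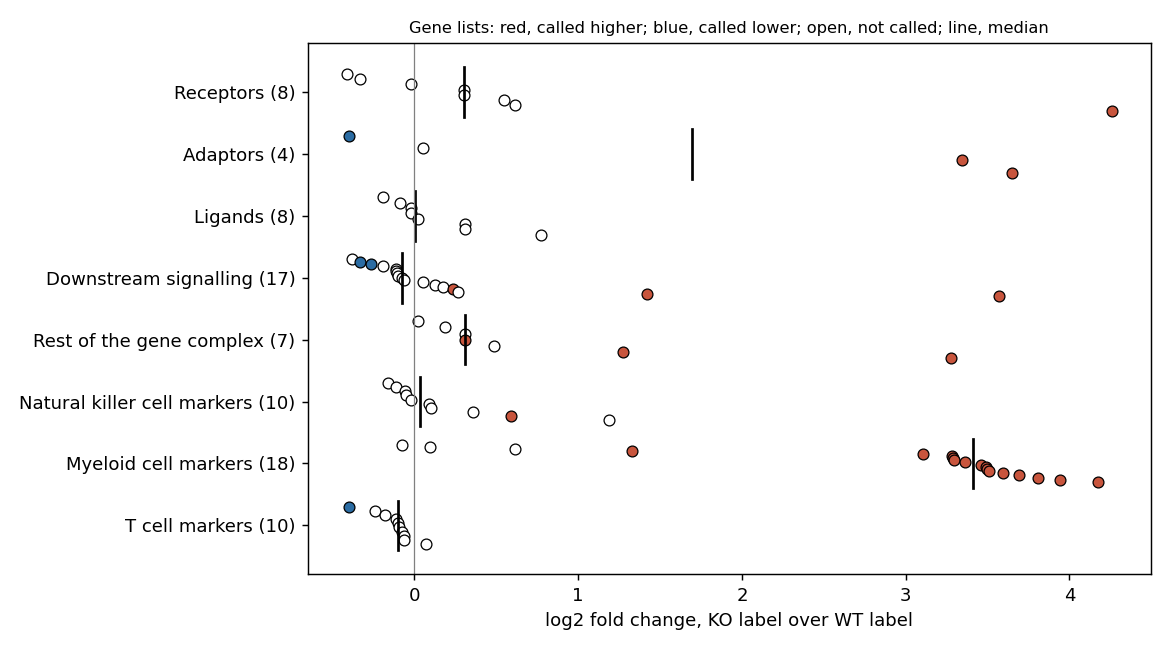
Log2 fold change (KO label over WT label) of every measured gene in each list, 1 point per gene, red where called higher, blue where called lower and open where not called in edgeR, with a line at the list's median. Klra2 (4.26) is the only filled point among the 8 receptors. It lies beside the highest myeloid markers (Fcgr1 at 4.175 and Csf1r at 3.95), while the T cell markers lie between -0.40 and 0.071.

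The genes whose levels followed each of the other receptors most closely over the 8 libraries, by Pearson correlation of log2 CPM, differed from those of Klra2. For Klrk1 they were Styk1 (0.977), Ing5 (0.948) and Frs2 (0.948), and Styk1 lies on chromosome 6 from 131299133 to 131353836, next to Klra2. Styk1 was at 2.32 CPM in WT 5 and 2.02 CPM in KO 4 and between 0.506 and 1.29 CPM elsewhere. For Klrc1 they were Xbp1 (0.991), Ugcg (0.967) and Fam192a (0.958), and for Klrd1 Sepsecs (0.992), Mdn1 (0.981) and Plat (0.951). For Klrb1f they were Mars (0.955), Mcam (0.949) and Acadm (0.942), for Klrg1 Nipsnap1 (0.942), Sgip1 (0.938) and Hccs (0.936), for Klrb1b Map2k5 (0.957), Als2cl (0.940) and Myo1c (0.937), and for Klrb1c Klhdc8b (0.919), Camta1 (0.878) and Hint2 (0.873). Each is the best of 11354 genes over only 8 libraries, a description with no test.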

How the data were processed

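Poly(A) RNA was read as single reads of 81 bases, per the labels' protocols, from a stranded library kit. Reads were aligned with STAR to mm10, per the submitters' processing notes; for the counting step, the tool, annotation and strand use are not given here. The deposited table holds raw counts per gene, with gene lengths, for 8 libraries. The lowest fourth-highest CPM of any gene was 0.994, so low genes had been left out before. None of the receptors overlapped another annotated gene in RefSeq (GRCm38.p6), which gave positions.

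Counts were tested in edgeR 4.0.16 (R 4.3.3) with TMM factors, filterByExpr, glmQLFit and glmQLFTest on the label alone, with Benjamini-Hochberg adjustment over all 11354 genes and a threshold of 0.05, and the fit was tested on simulated data. CPM used TMM-scaled totals, and log2 CPM a prior count of 2. Intervals are 95% intervals of the fitted log2 fold change. Single values were compared by exact permutation in scipy 1.17.1. limma 3.58.1 and DESeq2 1.42.0 were alternatives, with RLE factors, total library size, other filters, the host number as a block, the library code and leaving out each library. The receptors and lists were chosen with earlier results of these data known. All receptors were named; of each list, all measured members up to 8 or the 4 with the smallest p, though some of them are given only as counts or are not reported here; and for each receptor the 3 best correlated genes with a symbol, leaving out Gm, Rik and LOC names. The lists of gamma delta T cells and B cells had 0 measured members. The labels do not state whether a host number marks 1 mouse, so the p-values reflect only how these libraries vary, which may be technical.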

Additional observations from a re-analysis of the deposited data

Results flagged for a closer look

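Within a label, 5 receptor values stood far from the other 3 libraries by Dixon's criterion, out of 16 sets of 4 libraries. Chance flags about 1 in 20 such sets, and the genes share libraries, so the flags are not independent. In WT 5, Klrk1 was at 27.5 CPM, against 6.12 to 7.72 CPM in the other libraries labelled wild type. Klrd1 was also high in WT 5, at 13.3 CPM against 5.73 to 6.90 CPM. In KO 4, Klrc1 was at 202 CPM against 95.1 to 112 CPM for the rest of the KO label. Klrd1 was at 17.0 CPM in KO 4 against 9.96 to 11.2 CPM. In KO 2, Klrg1 was at 42.6 CPM against 24.7 to 27.0 CPM.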

How the results depend on the processing

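The call of Klra2 held in all 17 alternatives. The number of receptors called higher, 1 in edgeR with all libraries, was 2 with DESeq2, with limma-voom and with the library code as a term, 1 to 3 with 1 library left out (3 without WT 5 and 2 without KO 4) and 4 with WT 5 and KO 4 left out together. The number called lower, 0, was 0 to 1 with 1 library left out (Klrg1, without KO 2, where 317 of all genes were called lower). The 704 higher calls over all genes became 926 with DESeq2, 795 with limma-voom and 496 with the library code as a term. They became 709 without WT 5, 688 without KO 4 and 728 with WT 5 and KO 4 left out together. Over all genes, 1140 calls became 745 with the library code as a term, and the 436 lower calls became 249 with that term and 276 to 509 with 1 library left out (277 without WT 1 and 276 without KO 1). With the host number as a replicate block edgeR called 1020 genes and 1 receptor, Klra2 (log2 fold change 4.18). Same-numbered libraries correlated in their deviations from the label means at -0.060, 0.182, -0.138 and 0.256 for hosts 1, 2, 4 and 5. WT 2 and WT 5 thus correlated best with their own number. WT 1 did so with KO 4 (0.110) and WT 4 with KO 2 (0.198), so the numbers were not taken as pairs. With 1 library left out, the exact permutation tests cannot reach 0.05 (the pairs with Klra2 then gave 0.0571), which says nothing of stability. For genes at the level of Klra2 under the WT label (11 to 20 counts) depth limits the precision of the fold change.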

Other observations

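Klrb1f and Clec2i, the gene of its described ligand Clr-g, had like profiles, a pair noticed after the values were seen. Clec2i (chromosome 6, 128887587 to 128898168) was at 46.9 to 47.3 CPM in the libraries labelled wild type and at 68.3, 70.2, 41.5 and 53.3 CPM in KO 1, 2, 4 and 5. Both genes were thus high in KO 1 and KO 2, lower in KO 5 and at or below the level of the WT label in KO 4. Over the 8 libraries the Pearson correlation of log2 CPM was 0.940, a description with no test. Clec2i passed without KO 4 (0.44, edgeR adjusted p = 0.0126).

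Among markers of innate lymphoid cells, which can also carry these receptors, 0 of 5 measured genes passed in edgeR. An unadjusted p under 0.05 was seen for 2 of them, against 23.5% of all genes. Kit (0.91), Il22 (1.03), Il1rl1 (0.0080) and Id2 (0.037) are log2 fold changes that did not pass, while Kit did in DESeq2 (adjusted p = 0.0141) and without KO 2 (1.13, adjusted p = 0.0180). Il22 passed with the host number as a block (1.03, adjusted p = 0.00568) and without WT 5 (1.47, adjusted p = 0.0417). Its libraries overlapped between the labels, with WT 5 (37.8 CPM) above KO 2 (21.8 CPM) and KO 4 (34.6 CPM). Summed, the 5 measured genes reached 581 ± 66.7 CPM for the WT label and 611 ± 66.1 CPM for the KO label (SD, n = 4 each, two-sided exact permutation p = 0.543). Of 6 listed neutrophil genes 4 were measured, and these rose (Csf3r 3.12, Mmp8 3.17, S100a8 1.86 and S100a9 1.36), against 6.20% of all genes. Mmp8 was at 0.0764 to 0.245 CPM under the WT label, below 0.994 CPM, the lowest fourth-highest CPM of any gene. It thus had a row only through the KO label, which favours finding a rise. S100a9 lost its call in 10 of 17 alternatives. Summed neutrophil markers were at 9.31 ± 2.40 and 39.6 ± 15.3 CPM (exact permutation p = 0.0286, adjusted 0.0857), and the CD8 pair at 6.49 ± 2.54 and 21.0 ± 15.3 CPM (exact permutation p = 0.0571, adjusted 0.114).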
